A study of Homo sapiens with 4 samples.

Results

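A set of 52 genes of ribosome biogenesis and RNA polymerase I transcription was followed in MV4-11, a cell line from a human acute myeloid leukemia, with and without knockdown of the transcription factor IRF1. The set was chosen by name, as the rows of the deposited gene table whose symbol is in a fixed list, and all 52 were found among the 23622 genes of that table. There were 2 control libraries, titled NC and headed sh_NC in the deposited values (sh-NC here), and 2 knockdown libraries, called sh-IRF1. The labels describe all 4 as wild-type MV4-11 cells, the control without treatment and the other group with IRF1 knockdown. Per the study's methods, hairpins against IRF1 were delivered in a lentiviral vector made in a packaging line, and infected cells were selected with puromycin before collection. Elsewhere the study describes cells infected with its negative control, sh-NC. The label of a control without treatment and the heading sh_NC thus differ, and the sources used here do not settle whether the sequenced controls were infected and selected. The labels do not say whether the libraries of a group came from separate cultures, so the p-values below measure the spread between these libraries only, which may be technical.

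The nucleolus makes ribosomes. RNA polymerase I transcribes the ribosomal RNA (rRNA) precursor from repeated genes, the small subunit processome folds and cuts the part that becomes the small subunit, and a separate series of GTPases, helicases and scaffold proteins builds the large subunit. Small nucleolar RNAs (snoRNAs), most of them encoded in introns of protein-coding genes, guide the chemical modification of rRNA in particles with box C/D or box H/ACA proteins. Genes for this machinery are highly expressed in growing cells, leukemia cells included, and many of them are known targets of MYC.

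The targets of both hairpins against IRF1 that the study lists are shown because the comparison rests on them. Each is 21 bases long, written 5′ to 3′ in lower case, and was found in 12 and 13 of the 50 annotated IRF1 transcripts, respectively, and in 0 of the 559 transcripts of the 52 genes (exact matches, GENCODE 44). Which hairpin was used for which library is not given in the sources used here.
sh-IRF1#1: gcaccagtgatctgtacaact
sh-IRF1#2: ggaaattacctgaggacatca

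IRF1 itself (chr5:132440440-132508719, minus strand, GRCh38) had normalized counts of 785 and 738 in sh-NC and of 430 and 432 in sh-IRF1. Both knockdown libraries lay below both controls, and the decrease as measured was partial, at 56.6% of the control mean (log2 fold change -0.82, standard error 0.0904, adjusted p = 1.69e-10 from limma). IRF1 shares 22.9% of its exonic bases with genes on the other strand, so the size of its decrease is uncertain. A normalized count here is the reads of a gene divided by 1 size factor per library. Fold changes are on the log2(normalized count + 1) scale, which understates changes of genes with few reads, and a gene was called when its p from limma, adjusted over the 14120 genes tested, was under 0.05. With 2 libraries against 2, an exact permutation test cannot give a two-sided p below 0.33, and the calls use the spread that limma shares across genes.

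Depth was similar across libraries, between 17635908 and 18695337 reads as implied by the steps of the values, with 3.92% to 4.51% from mitochondrial genes. All 9 markers of the myeloid line that were checked, among them FLT3, CD33 and PTPRC, were in the table and tested. Their summed normalized count, most of it from FLT3, was 25144 to 25191 in sh-NC and 20507 to 20809 in sh-IRF1, but they went in both directions. FLT3 (72.9% of the control), PTPRC (71.6%), CSF1R (87.8%), MPO (37.3%) and CD14 (16%) fell, LYZ (180%) and ITGAM (154%) rose, and CD33 (102%) and KIT, at most 16.9 in any library, were not called. The T cell markers found, 2 of 5, summed to at most 8.22 in any library, while the B cell markers found, 3 of 4, summed to 88.2 to 120 in sh-NC and to 254 to 305 in sh-IRF1. Markers of epithelial cells, fibroblasts or packaging cells (3 of 6 found) summed to 258 to 345 in sh-NC and to 362 to 397 in sh-IRF1, and the 1 erythroid marker found of 5 to 27.7 to 28.8 and 10.3 to 11.9. The part of these shifts in the results below was not tested. In bulk RNA, fewer cells of a kind and less RNA per cell cannot be told apart.

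Of the 52 genes, all tested, 34 (65.4%) fell and 1 rose, UTP20, while 17 did not pass the test. Over all genes tested 21.9% were called lower and 20.3% higher. Among the 6275 genes with a mean level in the range of the set (between its 10th and 90th percentiles) these shares were 31% and 26.4%. In either direction 35 of the 52 genes were called, beside 42.2% of all genes tested and 57.4% of those of like level. The median log2 fold change of the set was -0.23, with quartiles at -0.34 and -0.03, beside medians of -0.00189 for all genes tested and -0.02 for the genes of like level. The log2 fold change was below 0 for 41 of the 52 genes, beside 50.2% of all genes tested and 52.6% of those of like level. The decreases were small: 6 genes fell by more than 0.5 on the log2 scale (NOP56, UTP4, WDR43, NIP7, GNL3 and WDR74) and 0 rose by more than 0.5, where 7.56% and 8.27% of all genes tested did, and 6.6% and 6.18% of those of like level. Both sh-IRF1 libraries lay below both sh-NC libraries for 36 of the 52 genes and above for 7, against 35% and 34.2% of all genes tested and 42% and 37.6% of those of like level.

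**Figure D1:**
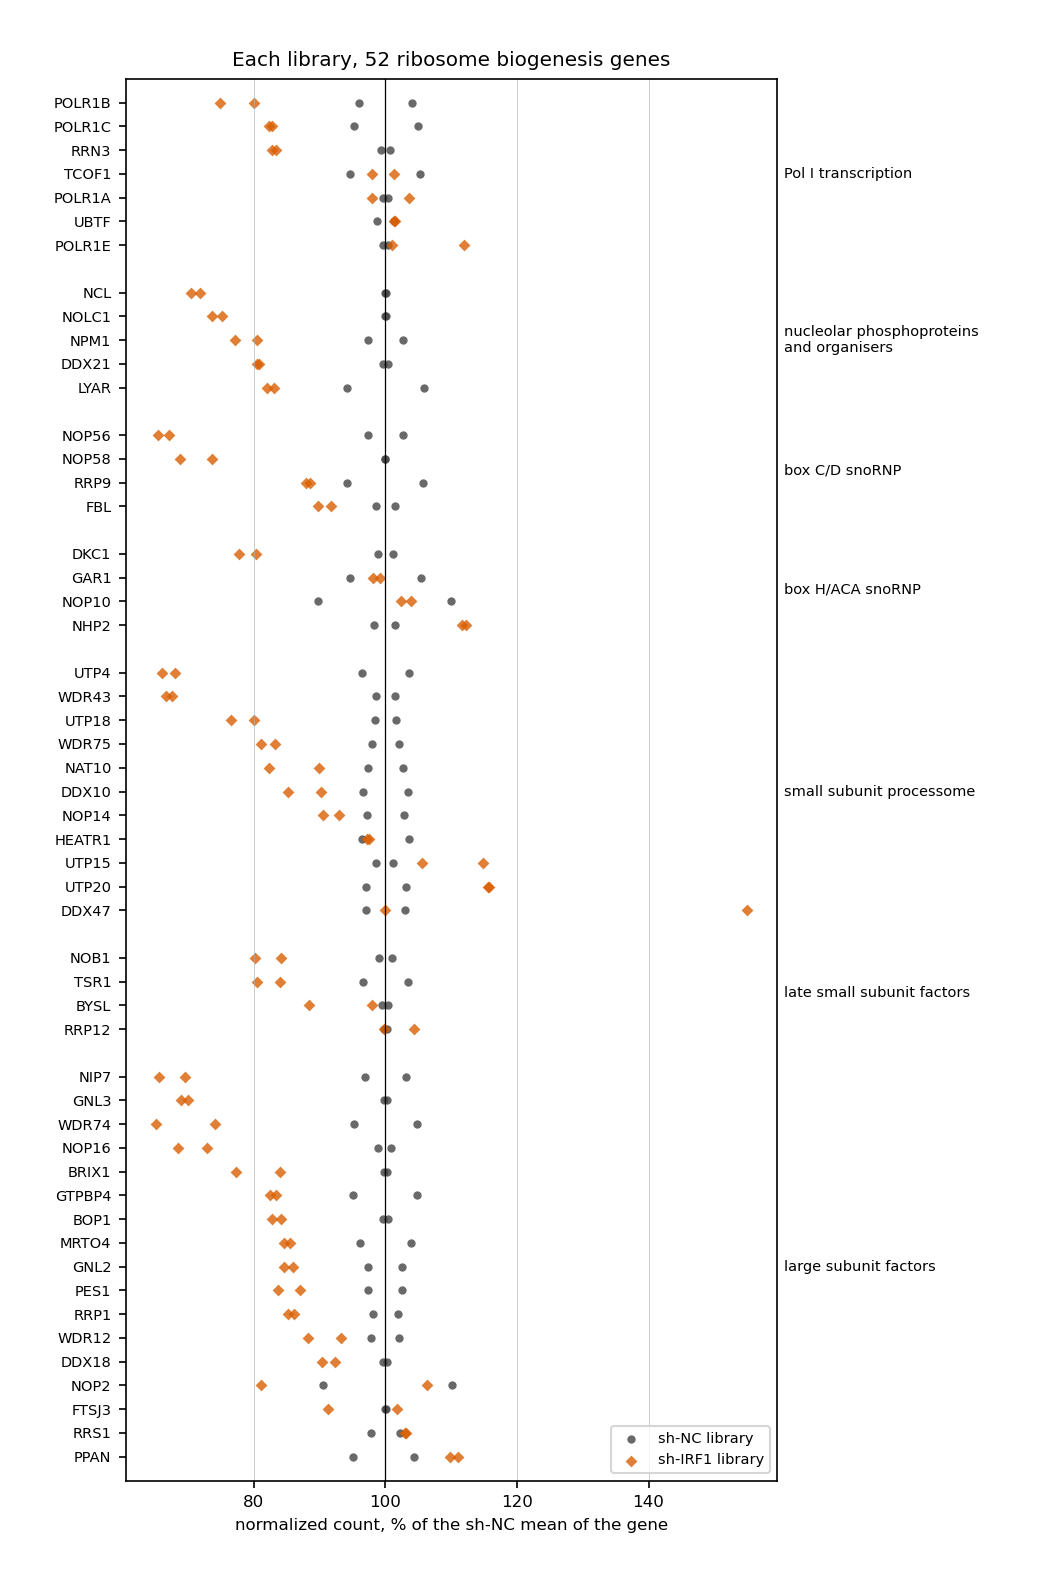
Normalized count of each of the 52 genes in each library, as a percentage of the gene's sh-NC mean (horizontal axis), with genes grouped by role. Circles are the 2 sh-NC libraries and diamonds the 2 sh-IRF1 libraries; for 36 genes both diamonds lie to the left of both circles, and for 7 genes both lie to the right.

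Summed over the 52 genes, the normalized count was 144062 and 141906 in sh-NC and 118087 and 116881 in sh-IRF1. The knockdown libraries were thus at 82.2% of the control, and the share of all reads went from 0.796% and 0.783% to 0.671% and 0.667%. The sum is dominated by a few abundant transcripts, so the groups of genes are described in turn.

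**Figure D2:**
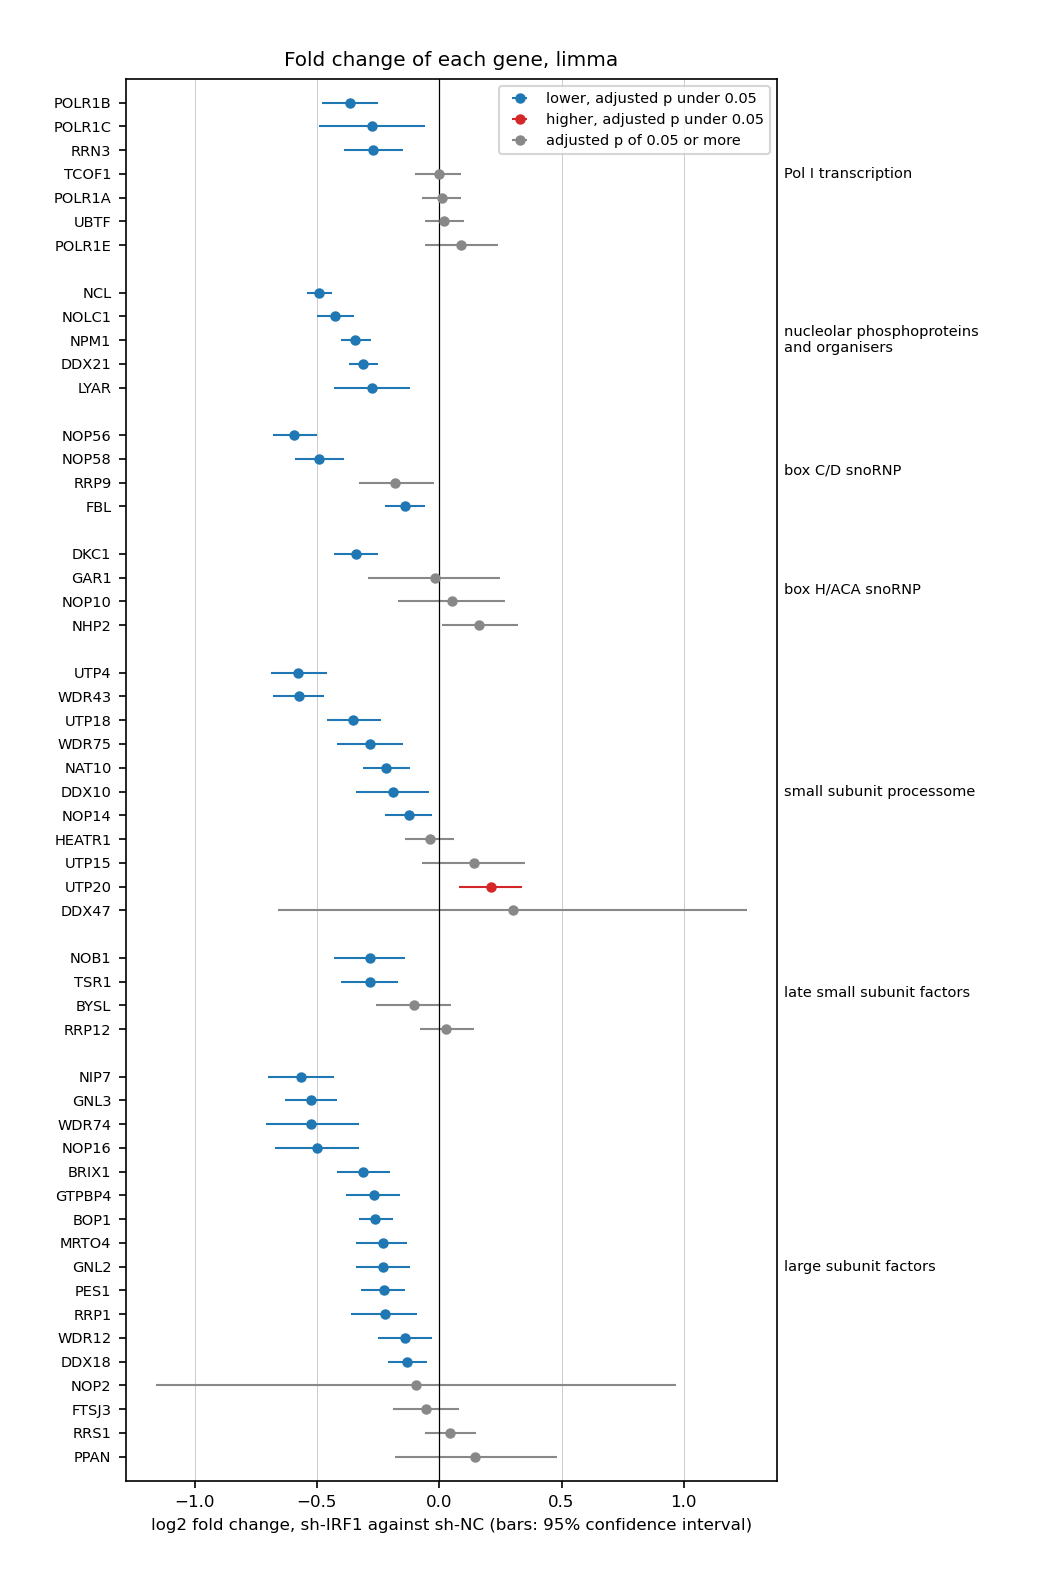
Log2 fold change of each gene, sh-IRF1 against sh-NC (horizontal axis), with its 95% confidence interval from limma (bars), grouped by role. Called decreases, in blue, number 34; the called increase, UTP20, is in red, and the 17 genes without a call are in gray, with the widest intervals at NOP2 and DDX47.

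In the RNA polymerase I group, 3 of 7 genes fell, and the median log2 fold change was -0.00299. POLR1B (chr2:112541915-112579818), which forms the active center together with POLR1A, had normalized counts of 1895 and 2055 in sh-NC and of 1479 and 1582 in sh-IRF1. The groups did not overlap, and the level in sh-IRF1 was 77.5% of the control (log2 fold change -0.37, standard error 0.0561, adjusted p = 4.07e-07 from limma). RRN3 (chr16:15060033-15094311), the factor that brings the polymerase to the rRNA gene promoter, went from 1598 and 1621 to 1331 and 1341. Both knockdown libraries were again below both controls (log2 fold change -0.27, standard error 0.058, adjusted p = 0.000155 from limma), and the reads of RRN3 pseudogenes in the table came to 9.98% of its own. POLR1C, a subunit shared with RNA polymerase III, had 459 and 416 in sh-NC and 360 and 362 in sh-IRF1 (log2 fold change -0.27, adjusted p = 0.0372 from limma). That call was lost with no filter on low values (adjusted p = 0.0543 from limma) and with scaling to the library total (0.0833). It was also lost without sh-NC replicate 1 (log2 fold change -0.204) and without either sh-IRF1 library (-0.271 and -0.278). POLR1C shares 18.3% of its exonic bases with genes on the other strand.

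The other 4 genes of the group did not pass the test. The catalytic subunit POLR1A had 3654 and 3683 in sh-NC and 3594 and 3800 in sh-IRF1, so the groups overlapped (log2 fold change 0.01, 95% interval -0.07 to 0.09). UBTF, which binds the rRNA genes and keeps them open, had 4434 and 4321 against 4435 and 4444 (0.02, interval -0.06 to 0.10). TCOF1, the nucleolar phosphoprotein treacle that couples rRNA transcription to processing, had 3173 and 2854 against 3055 and 2952, with overlap and an interval of -0.10 to 0.09. POLR1E, another subunit, had 866 and 859 against 871 and 965, with an interval of -0.06 to 0.24. Summed over all 7 genes, 95.9% of the control level was measured in sh-IRF1, the highest share among the 7 role groups.

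All 5 nucleolar phosphoproteins and organisers fell, with a median log2 fold change of -0.34. Nucleolin (NCL, chr2:231453531-231483641), which binds nascent rRNA and is the most abundant transcript of the set, had normalized counts of 23629 and 23684 in sh-NC and of 17001 and 16667 in sh-IRF1. The knockdown libraries were far below the controls relative to the spread within groups (71.2% of the control, log2 fold change -0.49, standard error 0.025, adjusted p = 1.49e-21 from limma). Nucleophosmin (NPM1, chr5:171387116-171411810), a chaperone of ribosome assembly whose gene is often mutated in acute myeloid leukemia, went from 15880 and 15065 to 12454 and 11936. The groups did not overlap (log2 fold change -0.34, standard error 0.0292, adjusted p = 7.98e-14 from limma). The reads of named NPM1 pseudogenes in the table came to 2.02% of its own. NOLC1 (chr10:102152176-102163871), a chaperone of snoRNA particles, went from 5838 and 5830 to 4294 and 4385, to 74.4% of the control (log2 fold change -0.43, standard error 0.0365, adjusted p = 9.71e-14 from limma). The RNA helicase DDX21 fell less, to 80.6% of the control, and LYAR, a nucleolar protein of growing cells, to 82.6%. LYAR was not called without sh-NC replicate 1 (log2 fold change -0.189, adjusted p = 0.104 from limma). The group as a whole was at 75.5% of the control, the lowest share among the role groups.

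Of the box C/D proteins, 3 of 4 fell. NOP56 (chr20:2652593-2658393), a scaffold of the particle, had 3585 and 3399 in sh-NC and 2343 and 2286 in sh-IRF1. It had the lowest fold change of the 52 genes, with the knockdown libraries at 66.3% of the control (log2 fold change -0.59, standard error 0.045, adjusted p = 2.21e-15 from limma). Its partner NOP58 (chr2:202265736-202303661) went from 2590 and 2589 to 1907 and 1780 (log2 fold change -0.49, standard error 0.05, adjusted p = 1.84e-11 from limma). Both knockdown libraries were below both controls for either scaffold. Fibrillarin (FBL), the methyltransferase, went from 4778 and 4646 to 4326 and 4229, a smaller decrease to 90.8% of the control (log2 fold change -0.14, adjusted p = 0.00245 from limma). The FBL call was lost without sh-IRF1 replicate 2 (log2 fold change -0.123, adjusted p = 0.0581 from limma). RRP9, a protein of the U3 particle, had 955 and 851 against 800 and 794. Its libraries did not overlap, but it did not pass the test (log2 fold change -0.18, interval -0.33 to -0.02, adjusted p = 0.0554 from limma), and its value rested on the controls: it was -0.261 without sh-NC replicate 2 (adjusted p = 0.014) and -0.0959 without sh-NC replicate 1 (adjusted p = 0.445).

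Of the box H/ACA proteins, which convert uridines to pseudouridines, 1 of 4 fell. Dyskerin (DKC1, chrX:154762742-154777689), the enzyme, had 3295 and 3219 in sh-NC and 2618 and 2531 in sh-IRF1, a decrease to 79% of the control without overlap (log2 fold change -0.34, standard error 0.0443, adjusted p = 1.26e-08 from limma). Its partners did not pass the test. NOP10 had 453 and 370 against 428 and 422, and GAR1 had 243 and 271 against 255 and 252. In both, the knockdown libraries lay between the controls, and the intervals were -0.17 to 0.27 and -0.29 to 0.25. NHP2 had 735 and 712 against 808 and 813, higher in both knockdown libraries (log2 fold change 0.16, interval 0.01 to 0.32, adjusted p = 0.0887 from limma). It shares 28% of its exonic bases with RMND5B on the other strand. NHP2 was called higher when libraries were scaled to their total instead (0.208, adjusted p = 0.028). Whether DKC1 changed differently from its partners was not tested.

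In the small subunit processome, the large particle that assembles on the nascent rRNA precursor, 7 of 11 genes fell, 1 rose and 3 did not pass the test, with a median log2 fold change of -0.19. WDR43 (chr2:28894667-28948219), of the subcomplex that binds the precursor first, had 2465 and 2393 in sh-NC and 1643 and 1619 in sh-IRF1. UTP4 (chr16:69131291-69231130), of the same subcomplex, had 1783 and 1917 against 1221 and 1258. Both were near 67% of the control, at 67.2% and 67%, and without overlap. Their log2 fold changes were -0.57 (standard error 0.051, adjusted p = 3.19e-13 from limma) and -0.58 (standard error 0.0583, adjusted p = 1.55e-11). WDR75, of that subcomplex too, fell to 82.1% of the control, from 1225 and 1175 to 998 and 974. HEATR1, another of its proteins, had 2381 and 2218 against 2234 and 2241, with overlapping groups (log2 fold change -0.04, interval -0.14 to 0.06). UTP15, also of it, had 404 and 415 against 471 and 433 and did not pass the test either (0.14, interval -0.07 to 0.35). The differences between these genes were not tested.

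UTP18 (chr17:51260546-51297936), of another processome subcomplex, went from 1893 and 1954 to 1539 and 1472 (log2 fold change -0.35, standard error 0.0549, adjusted p = 5.82e-07 from limma). NAT10, which acetylates cytidines of the small subunit rRNA, fell to 86.1% of the control. The helicase DDX10 and the assembly factor NOP14 fell to 87.7% and 91.8%. Both of these calls were weak. DDX10 was not called without sh-NC replicate 1 or either sh-IRF1 library (adjusted p of 0.24, 0.0591 and 0.242 from limma), nor was NOP14 without sh-NC replicate 2 or either sh-IRF1 library (0.284, 0.0802 and 0.213).

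UTP20 (chr12:101280105-101386618), a very large scaffold protein, was the single gene of the set that rose. It had normalized counts of 1099 and 1034 in sh-NC and of 1234 and 1233 in sh-IRF1, above both controls and at 116% of their mean (log2 fold change 0.21, standard error 0.0653, adjusted p = 0.00747 from limma). The call was lost without sh-NC replicate 2, sh-IRF1 replicate 1 or sh-IRF1 replicate 2, with log2 fold changes of 0.167, 0.21 and 0.211 and adjusted p of 0.0795, 0.0541 and 0.0557. DDX47, a helicase, was listed at only 17.4 and 16.4 in sh-NC and 16.9 and 26.2 in sh-IRF1. It shares 36.5% of its exonic bases with APOLD1 on the same strand, which had 799 and 799 in sh-NC and 488 and 585 in sh-IRF1, so its value is uncertain.

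The late factors of the small subunit act on the particle as it leaves the nucleolus and matures in the cytoplasm, and 2 of 4 fell. TSR1, which keeps the immature subunit from starting translation, went from 1696 and 1818 to 1476 and 1413, and NOB1, the nuclease of the last cut of the small subunit rRNA, from 1043 and 1023 to 829 and 869. Both had a log2 fold change of -0.28, with no overlap (adjusted p = 6.55e-05 and 0.00102 from limma). Over 20% of the exonic bases of each are shared with a gene on the other strand, 26.9% for TSR1 and 20.4% for NOB1. BYSL had 879 and 870 against 773 and 857 (log2 fold change -0.10, interval -0.26 to 0.05). RRP12 had 1805 and 1813 against 1889 and 1804, with overlap and an interval of -0.08 to 0.14.

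Of the large subunit factors, 13 of 17 fell, 0 rose and 4 did not pass the test, with a median log2 fold change of -0.23. Nucleostemin (GNL3, chr3:52681156-52694497), a GTPase of the nucleolus found in stem and tumor cells, had normalized counts of 2488 and 2501 in sh-NC and of 1719 and 1747 in sh-IRF1. The decrease, to 69.5% of the control, was far larger than the spread within groups (log2 fold change -0.53, standard error 0.0499, adjusted p = 2.56e-12 from limma). NIP7 (chr16:69337996-69343106), a factor of pre-rRNA processing, went from 1384 and 1473 to 936 and 993 (log2 fold change -0.57, standard error 0.0653, adjusted p = 5.82e-10 from limma). It shares 18.4% of its exonic bases with COG8 on the other strand. WDR74 and NOP16, both nucleolar assembly proteins, were at 69.6% and 70.7% of the control. They share 22.3% and 18.6% of their exonic bases with other genes, 10.1% on the same strand for WDR74.

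PES1, BOP1 and WDR12 form 1 complex (PeBoW) that is needed for large subunit rRNA processing, and all 3 fell. BOP1 (chr8:144262045-144291438) went from 5580 and 5533 to 4672 and 4602 (log2 fold change -0.26, standard error 0.0364, adjusted p = 5.67e-08 from limma). PES1 went from 3060 and 3223 to 2631 and 2734, and WDR12 from 1912 and 1831 to 1652 and 1747. The groups did not overlap for any of them, at 83.5%, 85.4% and 90.8% of the control. The WDR12 call (adjusted p = 0.0343 from limma) was lost without sh-NC replicate 1 or sh-IRF1 replicate 1 (0.195 and 0.277). The GTPases GNL2 and GTPBP4 were at 85.2% and 82.9% of the control. Among the other factors that fell, BRIX1 was at 80.6%, MRTO4 at 85.1%, RRP1 at 85.7% and the helicase DDX18 at 91.4%, the last not called without sh-IRF1 replicate 1 (adjusted p = 0.092 from limma).

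The 4 large subunit factors without a call were FTSJ3, RRS1, PPAN and NOP2. FTSJ3, a methyltransferase, had 1081 and 1082 in sh-NC and 1100 and 986 in sh-IRF1 (interval -0.19 to 0.08), with overlap. RRS1, which helps to load the smallest ribosomal RNA, had 1689 and 1766 against 1783 and 1780 (interval -0.06 to 0.15). PPAN had 169 and 154 against 178 and 180, with an interval of -0.18 to 0.48, and it shares 49.2% of its exonic bases with P2RY11 and the readthrough gene PPAN-P2RY11. NOP2, another methyltransferase, was listed at 14.4 and 17.5 in sh-NC and at 12.9 and 16.9 in sh-IRF1, the smallest control value of the set. Since 54.4% of its exonic bases are shared with a gene annotated on the same strand, its reads cannot be assigned with certainty.

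Shared bases touched other genes too. In all, 16 of the 52 genes share over 10% of their exonic bases with another gene, most on the other strand, and the use of strand in the counting is not given in the sources used here. Of these 16, 9 fell and 0 rose. Of the remaining 36, 25 fell and 1 rose, with a median log2 fold change of -0.23, as over the whole set.

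The calls were unevenly spread over expression levels. Of 22 genes with a sh-NC mean of at least 2000, 18 fell, and of 15 genes between 1000 and 2000, 11 fell and 1 rose. Of the 15 genes under 1000, 5 fell, with a median log2 fold change of -0.09. The shares of all genes tested at each of these levels were not computed. Among genes in general, calls in either direction were also more frequent in the level range of the set (57.4%) than over all genes tested (42.2%). Calls of a decrease made up 31% and 21.9%, respectively. Standard errors widened from 0.025 for NCL to 0.134 for GAR1 and to 0.528 for NOP2, so a change of the size seen in most of the set was not detectable for the genes of lowest count.

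**Figure D3:**
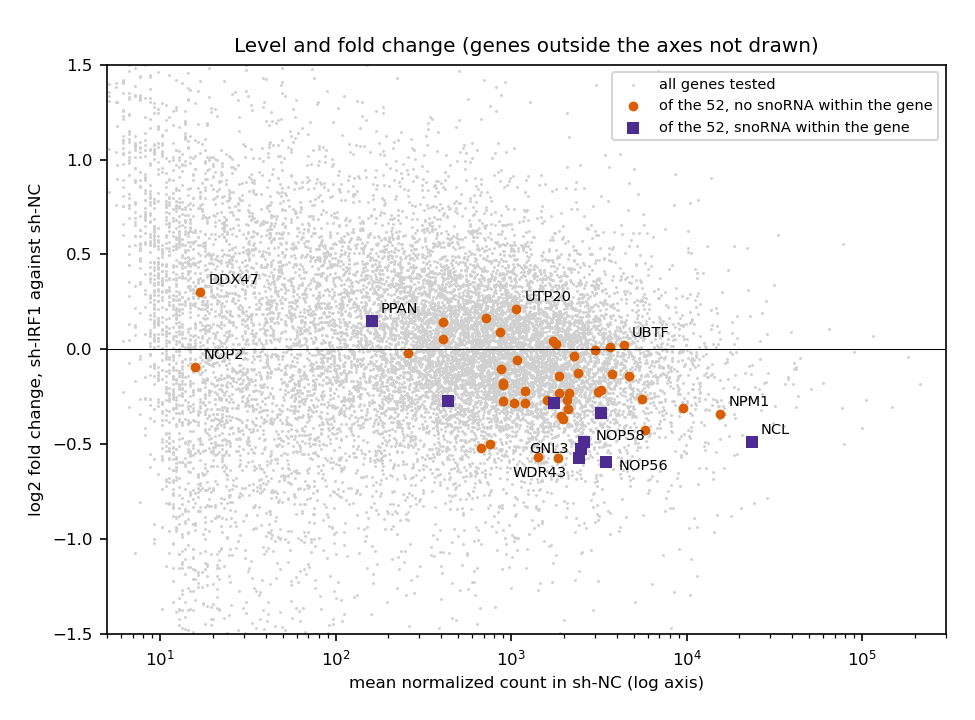
Mean normalized count in sh-NC (horizontal, log axis) and log2 fold change, sh-IRF1 against sh-NC (vertical), for all genes tested (gray) and for the 52 genes, with squares for the 9 that hold an annotated snoRNA. Of the 22 genes of the set at or above 2000, 18 fell, and 8 of the 9 squares are called decreases. Of all genes tested, 21.9% were called lower, and of those in the level range of the set 31%. PPAN is the square above 0.

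Per kilobase of exon, which allows genes to be compared with each other, the control levels were led by NCL at 2652 ± 4.37 (SD, n = 2) normalized counts per kilobase, followed by FBL at 2204 ± 43.8 and NPM1 at 1862 ± 69.4. NOLC1 and BOP1 came next at 1469 ± 1.4 and 1447 ± 8.7, then DDX21 at 1028 ± 4.7 and RRS1 at 1004 ± 31.3. DDX21 and RRS1 lay within their spread of each other. In sh-IRF1, FBL at 2001 ± 32.2 stood above NCL at 1887 ± 26.5, since the decrease of NCL was larger, and RRS1 at 1036 ± 0.934 stood above DDX21 at 829 ± 1.66. Exon lengths are those of all annotated exons of a gene joined, so genes with many long annotated isoforms, such as NCL, may be understated.

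Several genes of the set have snoRNAs annotated within their bounds, counted here whether in an intron or in an annotated exon. In the annotation, 9 of the 52 hold at least 1 snoRNA or related small RNA on the same strand. NOP56 holds 5 (SNORA51, SNORD110, SNORD56, SNORD57 and SNORD86), NCL holds 3 (SNORA75, SNORD20 and SNORD82), and NOP58, GNL3, WDR43, DKC1, TSR1, PPAN and POLR1C are the others. Of these 9, 8 fell, and their median log2 fold change was -0.49. Of the 43 genes without one, 26 fell and 1 rose, with a median of -0.19. Beside these counts, 21.9% of all genes tested and 31% of those in the level range of the set were called lower. The share among all genes that hold a snoRNA was not computed. The division by snoRNA was made after the values were seen and was not tested. It also moves with the level, since 6 of the 9 have a sh-NC mean of at least 2000. Of the 22 genes at that level, all 6 with a snoRNA fell, with a median of -0.51, and 12 of the 16 without fell, with a median of -0.22. Some of these small RNAs overlap annotated exons of the gene that holds them. NOP56 shares 9.54% of its exonic bases with its 5 snoRNAs and MIR1292, and NCL 2.43% with SNORA75 and SNORD20. Whether reads of the small RNAs were counted for these genes was not tested.

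The promoters of the set were searched for short motifs. RefSeq promoter windows (250 bases before to 50 after an annotated start, GRCh38.p14) matched 44 of the 52 genes, with 54 distinct windows. The E-box CACGTG, the site that MYC and related factors bind, reads the same on both strands. It was found in 18 of 54 windows (33.3%), beside 9.49% of the windows of all genes tested, 22.4% of the windows of the other ribosome biogenesis genes described below, and 7.26% of all promoter windows. Counted by gene, 18 of 44 (40.9%) had it in some window, beside 12.7% of genes tested. With only the first listed window of each gene, these shares were 31.8% and 10.3%. Of the 20 E-boxes, 8 lay within 100 bases upstream of a start. These 8, each in another gene, are shown with 12 bases on each side, in lower case with the E-box in capitals, 5′ to 3′ on the strand of the gene. The first 5 genes fell, UTP20 rose, and RRP9 and NOP10 were not called.
DDX21: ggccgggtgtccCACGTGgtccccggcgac
UTP4: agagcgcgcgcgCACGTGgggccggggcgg
UTP18: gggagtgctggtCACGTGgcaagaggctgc
NAT10: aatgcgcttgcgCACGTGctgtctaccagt
LYAR: cggcggcgagtcCACGTGctccccgcggcc
UTP20: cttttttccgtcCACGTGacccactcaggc
RRP9: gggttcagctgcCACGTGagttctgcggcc
NOP10: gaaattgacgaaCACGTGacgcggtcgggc

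These windows lie at chr10:68956604-68956633, chr16:69132621-69132650, chr17:51260445-51260474, chr11:34105602-34105631 and chr12:101280083-101280112 on the plus strand (DDX21, UTP4, UTP18, NAT10 and UTP20). Those of LYAR, RRP9 and NOP10 lie on the minus strand, at chr4:4290068-4290097, chr3:51941892-51941921 and chr15:34343130-34343159. Genes with and without the E-box were called lower at similar shares, a difference that was not tested. Of the 18 genes with an E-box 12 fell and 1 rose, with a median log2 fold change of -0.22. Of the 26 genes with a promoter window but no E-box, 18 fell and 0 rose (median -0.27). A match is a description of the sequence and not of binding.

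In all, 8 motifs were searched on both strands, with overlaps between motifs allowed, and the choice was made with the expression values known. The ETS core CCGGAAG was in 37% of the windows of the set and 17.4% of those of all genes tested, and the E-box variant CACGCG in 33.3% and 17.4%. In the windows of the other ribosome biogenesis genes described below, these shares were 38.1% for the ETS core and 26.9% for CACGCG. The GC box GGGCGG was in 66.7% of the windows of the set and 65.6% of those of all genes tested, CCAAT in 35.2% and 34.4%, and TATAAA in 1.85% and 6.21%. A pair of half-sites of the kind bound by interferon regulatory factors (GAAA, any 2 bases, GAAA) was in 3 windows of 2 genes (5.56% of windows, beside 3% for all genes tested). Counted by gene, the shares were close, at 4.55% and 4%. The other ribosome biogenesis genes had the pair in 9.7% of windows and 9.32% of genes. A palindrome of 10 bases centered on CGCG was in 1 window (1.85% of windows, beside 0.821% for all genes tested).

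A list of 136 other genes of the same machinery, written from general knowledge, was compared with the set. All 136 were tested, 52 (38.2%) fell and 11 rose, and the median log2 fold change was -0.12. Of all genes tested 21.9% were called lower and 20.3% higher, and of those in the level range of the 52 genes 31% and 26.4%. By list, 40% (RNA polymerase I), 40.9% (small subunit), 36.4% (large subunit), 10% (snoRNA particle assembly) and 47.8% (exosome and RNase MRP) were called lower. Their summed normalized count was 92.3% of the control, beside 82.2% for the 52 genes.

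**Figure D4:**
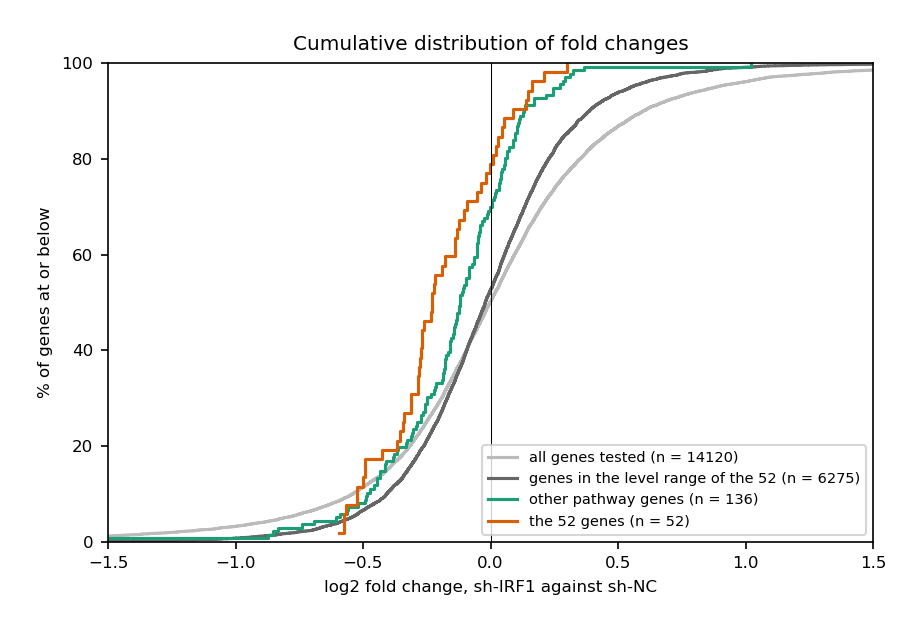
Cumulative distribution of log2 fold changes, sh-IRF1 against sh-NC: percentage of genes (vertical) at or below a given log2 fold change (horizontal), for all 14120 genes tested, the 6275 genes in the level range of the set, the 136 other ribosome biogenesis genes and the 52 genes. The curve of the 52 genes crosses its middle at -0.23, the 136 other genes at -0.12 and the genes of like level at -0.02.

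Of 15 other subunits and factors of RNA polymerase I, 6 fell and 2 rose. POLR1D, a small subunit shared with RNA polymerase III, went from 3942 and 3941 to 2863 and 2779 (log2 fold change -0.48, adjusted p = 1.57e-13 from limma). POLR2E, a subunit common to the 3 nuclear RNA polymerases, was higher in both knockdown libraries, at 7296 and 6971 against 6155 and 5668 (0.27, adjusted p = 2.46e-08). Of 44 other small subunit factors, 18 fell and 2 rose. WDR3, of the processome, had 1613 and 1600 against 1154 and 1187 (log2 fold change -0.46, adjusted p = 1.38e-08 from limma). BUD23, a methyltransferase of the small subunit rRNA, had 1242 and 1342 against 1588 and 1575 (0.29, adjusted p = 7.31e-05). PWP2 was listed at 15.4 and 23.6 in sh-NC and at 13.9 and 110 in sh-IRF1 and was not called. Both it and DDX47 were high in sh-IRF1 replicate 2 alone.

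Of 44 other large subunit factors, 16 fell and 6 rose. MAK16 (chr8:33485182-33501262), an early assembly factor, had 1121 and 1168 in sh-NC and 353 and 380 in sh-IRF1. At 32% of the control, it had the largest called decrease among all 188 genes of the set and the list (log2 fold change -1.64, standard error 0.0856, adjusted p = 3.87e-21 from limma). It shares 21.1% of its exonic bases with TTI2 on the other strand. MDN1, the giant ATPase that strips factors from the immature large subunit, rose from 2166 and 2170 to 2711 and 2877 (log2 fold change 0.36, adjusted p = 1.18e-08 from limma). Of 10 snoRNA particle assembly factors, 1 fell, PIH1D1 (2488 and 2584 against 2116 and 1997, adjusted p = 1.42e-06 from limma), and 0 rose, with ZNHIT6 closest at 676 and 674 against 722 and 751 (adjusted p = 0.218).

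Of 23 subunits of the RNA exosome, its partners and RNase MRP, which trim and cut rRNA precursors, 11 fell and 1 rose. EXOSC8, a ring subunit of the exosome, went from 876 and 825 to 491 and 463 (log2 fold change -0.83, adjusted p = 3.09e-11 from limma), with 16.3% of its exonic bases shared with SUPT20H. RPP14, a protein of RNase P and MRP, had 311 and 302 against 380 and 367 (0.29, adjusted p = 0.0439). That call was lost with each of the 4 libraries left out in turn (adjusted p between 0.0686 and 0.183 from limma) and RPP14 shares 41.8% of its exonic bases with HTD2.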

How the data were processed

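RNA sequencing of 4 MV4-11 libraries was analysed (2 sh-NC, 2 sh-IRF1). Per the labels, total RNA was made into libraries with a TruSeq kit. The submitters' processing notes name HISAT2 2.0.5 and hg38. The counting tool, annotation and strand setting are not given in the sources used here. As deposited, the values are a signal normalized by the authors, reads over a size factor that is constant within a library. In each library all values were whole multiples of 1 step (within 8.2e-05), from which depth was computed. 0 columns were left unused.

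Genes that reached a value of 10 in 2 or more libraries (14120 of 23622) were fitted with limma 3.58.1 (R 4.3.3) on log2(value + 1), with a variance trend and robust shrinkage (43 prior degrees of freedom) and Benjamini-Hochberg adjustment over all genes tested. On simulated data for this comparison, 198 of 200 genes changed by 1 on the log2 scale (99%) and 0 other genes were called among 14032. The simulated spread beyond counting noise was a set value, equal for all genes and not estimated from these libraries. The rate of false calls at the spread of these libraries was thus not measured. The lowest log2 fold change of the 52 genes was -0.59, and recovery at that size or smaller was not tested. Symbols were matched for 23456 identifiers. Positions came from GENCODE 44 and promoters from RefSeq.

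The 52 genes, the lists and the rules were chosen with earlier results of these data known. Named were, per role group, the 3 genes of smallest p (all in groups of 4), every increase, every gene without a call, and the gene of smallest p in each direction of each other list. Other genes given with values were picked after these were seen, as were the motifs and the use of all promoter windows of a gene. Alternatives covered the pseudocount, filter, scaling, shrinkage, a replicate block and leaving out each library. The planned tests on reads recovered from the steps were not run, because the recovery did not pass an automatic check for sh-IRF1 replicate 1, whose step is close to 1 (0.995).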

Additional observations from a re-analysis of the deposited data

How the results depend on the processing

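Of the 35 calls among the 52 genes, 27 were kept in all 12 alternatives, and 0 changed direction. With each library left out, 29 to 34 genes were lower and 0 to 1 higher, with a median log2 fold change of -0.257 to -0.195, and 6 to 12 of the other pathway genes were higher. Scaling to the library total gave 2 higher, 29 lower and a median of -0.184, and turned GAR1 (0.0251), TCOF1 (0.0415) and HEATR1 (0.00626) positive, none of them called. The same scaling moved the median of all genes tested from -0.00189 to 0.043. It sets the normalized totals equal, which were 18090764 and 18130136 in sh-NC and 17604155 and 17516965 in sh-IRF1. Why these totals differed was not tested. Genes without a call that changed sign when a library was left out were NOP10 (from -0.0942 to 0.199), GAR1 (-0.0977 to 0.0592), RRP12 (-0.00435 to 0.0623), NOP2 (-0.274 to 0.0853), POLR1A (-0.0297 to 0.0509), TCOF1 (-0.0793 to 0.0733), HEATR1 (-0.0894 to 0.013), DDX47 (-0.00154 to 0.603) and FTSJ3 (-0.134 to 0.0248). Where a group keeps 1 library, it is assumed to vary like the other group.

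Libraries with the same replicate number did not deviate together (correlation of deviations -0.0154 over 14120 genes), so the numbers were not taken as pairs. With the replicate block, 35 of the 52 genes were lower and 1 higher, the added call being RRP9 (adjusted p = 0.0492 from limma), the median was -0.229, and 52 and 12 of the other pathway genes were lower and higher. The planned edgeR and DESeq2 tests were not run, for the reason given with the processing. With 2 libraries a group, changes smaller than the shared spread were not detectable, least of all for genes of low count such as NOP2 and DDX47.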
